A study of Mus musculus with 6 samples.

Results

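The mRNAs of 10 chemokines and cytokines were followed in B16F10 cells, a mouse melanoma line, after depletion of OSGEP, the enzyme subunit of KEOPS, which makes the t6A modification of tRNAs. The genes were chosen by name, as secreted factors with which a tumour cell can attract or feed immune cells. The choice was made with earlier results of these data known. They comprised the chemokines Cxcl10, Cxcl16, Cxcl1, Ccl5 and Ccl2, the interleukin genes Il15, Il12a and Il7, the tumour necrosis factor gene Tnf and the macrophage growth factor gene Csf1. All 10 were listed among the 55487 genes counted. The 3 shCtr libraries came from cells that carried a scramble shRNA and were labelled WT. The 3 shOSGEP libraries came from cells that carried the hairpin OSGEP#2 and were labelled KD OSGEP. Both groups were infected with lentivirus and selected with puromycin, and the 3 replicates of a group were separate infections. Since 1 hairpin was sequenced, an effect of OSGEP loss and an effect of that hairpin on other mRNAs cannot be told apart. The question of this comparison was whether the melanoma cells themselves carried more mRNA for factors that recruit T cells once OSGEP was lost.

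Chemokines are small secreted proteins that bind G-protein-coupled receptors and guide leukocytes along a gradient. The product of Cxcl10 attracts activated T cells and NK cells through CXCR3, that of Ccl5 attracts T cells and monocytes, and that of Cxcl16 acts through CXCR6. The products of Ccl2 and Cxcl1 draw monocytes through CCR2 and neutrophils through CXCR2. The products of Il15 and Il7 keep T cells alive, that of Il12a is a subunit of interleukin 12, and that of Csf1 supports macrophages through its receptor CSF1R. Cxcl10 and Ccl5 are well known as targets of interferon regulatory factors and of NF-kappaB in cells that sense viral nucleic acid.

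Libraries held 18915587 to 29487384 counts. The targeted gene Osgep was at 20.6, 58.6 and 21.8 CPM (a library's counts scaled to its TMM-adjusted total) in shCtr replicates 1, 2 and 3, and at 4.28, 0.542 and 5.52 CPM in the shOSGEP replicates, so every library followed its label. The libraries of replicate 2 stood apart: they correlated with each other at 0.870 in log2 CPM, against 0.982 and 0.986 for replicates 1 and 3, and shCtr replicate 2 had a TMM factor of 0.690 where the others had 1.04 to 1.14. The 7 melanoma markers (Mlana, Pmel, Tyr, Tyrp1, Dct, Mitf and Sox10) were present in every library, at a summed level of 17040 to 29600 CPM in shCtr and of 18080, 3551 and 15390 CPM in shOSGEP replicates 1, 2 and 3. Of 18 leukocyte markers 11 had no count in any library, among them Ptprc, Cd3e and Adgre1. Their summed level was 5.30 to 9.39 CPM in shCtr and 4.30 to 5.47 CPM in shOSGEP, mostly from Cd68 and Lyz2. Fibroblast and endothelial markers summed to 0.639 to 2.93 CPM in shCtr and to 1.70 to 4.42 CPM in shOSGEP, with Dcn, Cdh5 and Kdr at 0. In such bulk libraries, fewer producing cells and less RNA per producing cell cannot be told apart.

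Of the 10 genes, 3 were below detection and 2 more were too low to be tested. A floor of 3 counts was applied, which equals 0.116 to 0.147 CPM depending on the library. Cxcl16 (chromosome 11, 70453983 to 70459984, minus strand, GRCm38), Il12a (chromosome 3, 68690644 to 68698547, plus strand) and Il7 (chromosome 3, 7569994 to 7613760, minus strand) had 0 counts in each of the 6 libraries. Over all 137499485 counts, a count of 0 allows a level of up to 0.0218 CPM of the summed libraries. No difference between the groups could be measured for them. A total of 6641 of 21897 protein-coding genes, or 30.3%, likewise had no count in any library. Zmynd15, which overlaps 552 exonic bases of Cxcl16 on the opposite strand, had 0 to 4 counts per library.

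Tnf and Ccl2 lay at the edge of detection and were too low to be tested. Tnf (chromosome 17, 35199381 to 35202007, minus strand) had 1, 0 and 1 counts in shCtr and 5, 3 and 2 counts in shOSGEP replicates 1, 2 and 3. Each shOSGEP count lay above each shCtr count, but shOSGEP replicate 1 was the only library above the floor of 3 counts. The summed counts, 2 against 10, gave a ratio of 4.63 after scaling, with a 95% exact interval of 0.986 to 43.4 that covers counting error only. Ccl2 (chromosome 11, 82035571 to 82037453, plus strand) had 0, 0 and 1 counts in shCtr and 1, 53 and 0 counts in shOSGEP. Thus 96.4% of its 55 counts came from shOSGEP replicate 2, at 2.05 CPM, and in the other 5 libraries it was at or under 1 count. The annotated gene Gm17268, whose span covers Ccl2 on the opposite strand, had 0 counts.

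**Figure D1:**
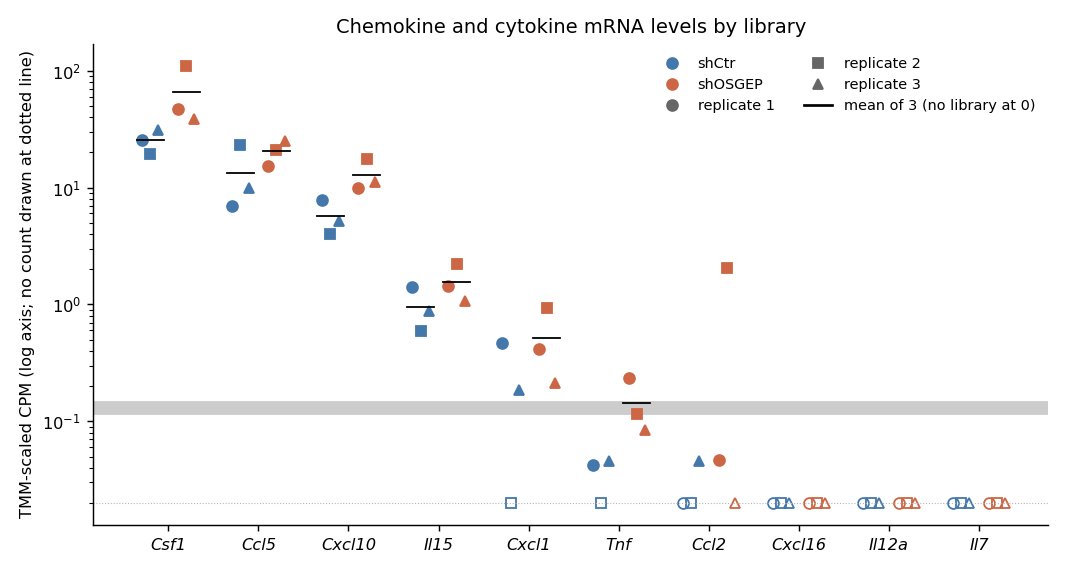
Level of each of the 10 genes in CPM after TMM scaling (log axis) in shCtr (blue) and shOSGEP (orange), with 1 point per library and the mean of 3 as a bar where no library was at 0; open symbols at the dotted line had no count, and the grey band is the floor of 3 counts. Csf1 and Cxcl10 separate by group, Ccl5, Il15 and Cxcl1 overlap, and Cxcl16, Il12a and Il7 had no count.

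The remaining 5 genes, Csf1, Ccl5, Cxcl10, Il15 and Cxcl1, passed the filter on low counts and were tested. A gene passes the study threshold below when its Log2FC is beyond 0.5 with an unadjusted p under 0.05, the cutoff the study used. Per kilobase of the longest coding transcript, their order by mean level was Ccl5, Csf1, Cxcl10, Il15 and Cxcl1 in shCtr and in shOSGEP. In shCtr, Ccl5 was at 13.2, 43.5 and 18.6 CPM per kilobase, above Csf1 at 6.13, 4.62 and 7.49 CPM per kilobase in every library. Csf1 overlapped with Cxcl10, which was at 5.75, 2.98 and 3.82 CPM per kilobase, and Il15 (0.309 to 0.735 CPM per kilobase) overlapped with Cxcl1 (0 to 0.490 CPM per kilobase), so the ranges of these neighbours over libraries were not separate. The ranges also overlapped in shOSGEP: Csf1 ranged from 9.29 to 26.3 and Cxcl10 from 7.36 to 12.9 CPM per kilobase, while Il15 ranged from 0.556 to 1.16 and Cxcl1 from 0.223 to 0.976 CPM per kilobase. Within each of the 6 libraries, however, Csf1 was above Cxcl10 and Il15 was above Cxcl1. Among the 12669 genes tested, the level of Ccl5 per kilobase stood at percentiles 63.1 to 81.6 in shCtr and 82.4 to 88.1 in shOSGEP, whereas Cxcl10 stood at percentiles 34.2 to 40.8 and 46.6 to 63.5. Ccl5 was thus the most abundant chemokine mRNA of this set per unit of length, and Cxcl10 stood in the lower and middle range of tested genes.

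Cxcl10 and Csf1 were the 2 tested genes of the set whose groups did not overlap. Cxcl10 (ENSMUSG00000034855, chromosome 5, 92346638 to 92348889, minus strand) was measured at 7.78, 4.03 and 5.16 CPM in shCtr (183, 82 and 112 counts) and at 9.96, 17.4 and 11.2 CPM in shOSGEP (214, 449 and 264 counts). All 3 shOSGEP libraries lay above all 3 shCtr libraries, with replicate 2 at both extremes. The means were 5.66 ± 1.92 and 12.8 ± 3.99 CPM (SD, n = 3), a 2.27-fold difference. The Log2FC was 1.18 (SE 0.494), with an unadjusted p of 0.0425 and an adjusted p of 1.00 in edgeR's quasi-likelihood test. Within replicate numbers 1, 2 and 3 the log2 ratios were 0.36, 2.11 and 1.12. Art3 lies on the opposite strand and shares 133 exonic bases with Cxcl10, or 5.91% of its exonic bases. Its own Log2FC was 1.15 (1.88 ± 0.631 and 4.16 ± 2.34 CPM, SD, n = 3), and without strand its part in the Cxcl10 counts was not tested.

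Csf1 (ENSMUSG00000014599, chromosome 3, 107741048 to 107760469, minus strand) was measured at 25.6, 19.3 and 31.3 CPM in shCtr (603, 392 and 678 counts) and at 47.2, 109.9 and 38.8 CPM in shOSGEP (1015, 2835 and 914 counts). The groups again did not overlap, but shOSGEP replicate 2 stood far above the other shOSGEP libraries. The means were 25.4 ± 6.0 and 65.3 ± 38.8 CPM (SD, n = 3), a 2.57-fold difference. The Log2FC was 1.36 (SE 0.518), with an unadjusted p of 0.0292 and an adjusted p of 1.00 in edgeR. Its log2 ratios within replicate numbers 1, 2 and 3 were 0.88, 2.51 and 0.31. With the replicate number as a block, the unadjusted p of Csf1 was 0.0533 (Log2FC 1.22), so that it no longer passed the study threshold, which 2.32% of all genes then met upward, while that of Cxcl10 stayed at 0.0425 (Log2FC 1.19). Both genes had p = 0.1 in the two-sided exact permutation test, which cannot go lower with 3 libraries a group.

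Both differences were smaller when the replicate 2 libraries were left out. The Log2FC was then 0.71 for Cxcl10 (SE 0.349) and 0.60 for Csf1 (SE 0.276), with unadjusted p of 0.0883 and 0.0751 in edgeR. Cxcl10 and Csf1 still had a Log2FC above 0 in each of the 19 alternative fits, between 0.60 and 1.64 for Cxcl10 and between 0.60 and 1.80 for Csf1.

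**Figure D2:**
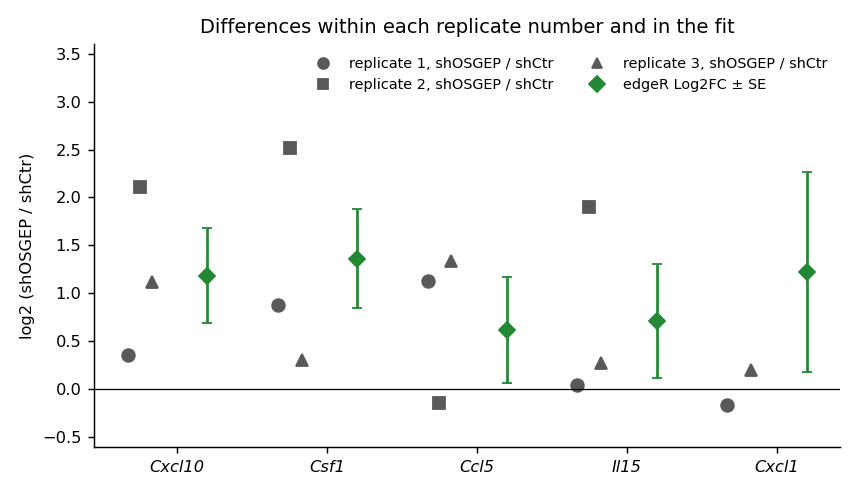
Log2 ratio of shOSGEP to shCtr within each replicate number (grey symbols) and the edgeR Log2FC with its SE (green diamonds) for the 5 tested genes. Cxcl10 and Csf1 are above 0 in all 3 numbers with replicate 2 highest, whereas Ccl5 is at 1.13 and 1.34 in replicates 1 and 3 and at -0.14 in replicate 2; Cxcl1 has no ratio in replicate 2, where shCtr had no count.

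The promoters of these genes were examined for motifs that interferon regulatory factors and NF-kappaB are known to bind. RefSeq promoter sequences (GRCm38.p6) were at hand for 5 of the 10 genes, Cxcl10, Csf1, Cxcl1, Tnf and Il12a. The 250 bases before the start are shown for Cxcl10 and Csf1, the tested genes without overlap, and for Cxcl1, the other one with a match. They read 5′ to 3′ on the gene's strand, and capitals mark motif letters.
Cxcl10, chr5:92348890-92349139, minus strand: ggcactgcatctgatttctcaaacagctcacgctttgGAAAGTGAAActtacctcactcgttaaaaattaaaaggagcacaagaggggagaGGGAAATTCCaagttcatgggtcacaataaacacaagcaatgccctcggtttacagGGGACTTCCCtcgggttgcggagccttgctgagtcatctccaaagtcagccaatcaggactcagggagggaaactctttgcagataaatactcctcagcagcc
Csf1, chr3:107760470-107760719, minus strand: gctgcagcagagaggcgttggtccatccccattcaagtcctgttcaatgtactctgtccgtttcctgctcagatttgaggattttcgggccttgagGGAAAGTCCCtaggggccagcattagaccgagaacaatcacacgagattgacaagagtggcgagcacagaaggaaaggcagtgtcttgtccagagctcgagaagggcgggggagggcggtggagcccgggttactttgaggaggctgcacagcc
Cxcl1, chr5:90890995-90891244, plus strand: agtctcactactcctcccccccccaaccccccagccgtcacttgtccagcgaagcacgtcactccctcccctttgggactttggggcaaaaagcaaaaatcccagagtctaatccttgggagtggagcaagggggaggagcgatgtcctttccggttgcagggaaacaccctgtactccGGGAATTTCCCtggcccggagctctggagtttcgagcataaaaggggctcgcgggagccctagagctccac

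Both strands were searched. The core of the interferon-stimulated response element (GAAA, any 2 bases, GAAA) matched the Cxcl10 promoter 204 to 213 bases before the start, and matched none of the other 4 genes. The NF-kappaB consensus matched Cxcl10 at 2 places, 150 to 159 and 94 to 103 bases before the start. It matched Csf1 once, 145 to 154 bases before the start, and Cxcl1 on both strands over 1 stretch, 61 to 71 bases before the start. Of 32851 promoters of this length, 2.98% held the first motif and 3.90% the second. The C/EBP-ATF response element (TGATGNAA), held by 3.45% of promoters, matched none of the 5 genes. A match describes these letters and is no evidence of binding in these cells.

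**Figure D3:**
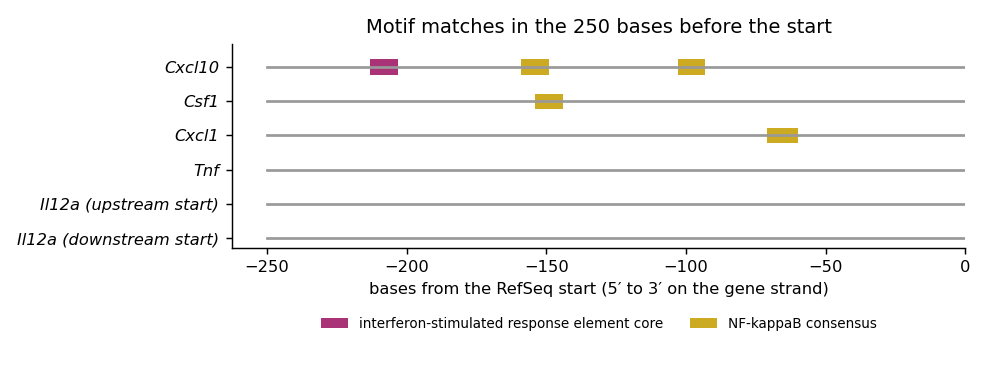
Matches of the interferon-stimulated response element core (purple) and of the NF-kappaB consensus (yellow) in the 250 bases before the RefSeq start of 5 genes, by distance from the start in bases. Cxcl10 holds 1 match of the former and 2 of the latter, Csf1 1 of the latter, Cxcl1 1 stretch matched on both strands, and Tnf and Il12a (which has 2 annotated starts) none.

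Ccl5 (ENSMUSG00000035042, chromosome 11, 83525778 to 83530518, minus strand) differed from Cxcl10 in its pattern over libraries. Its shCtr libraries held 7.01, 23.2 and 9.87 CPM (165, 471 and 214 counts) and its shOSGEP libraries 15.3, 21 and 25 CPM (330, 542 and 589 counts). The shCtr library of replicate 2 lay above 2 of the 3 shOSGEP libraries, so the groups overlapped. The means were 13.3 ± 8.62 and 20.4 ± 4.84 CPM (SD, n = 3). The Log2FC was 0.62 (SE 0.552), with an unadjusted p of 0.296 in edgeR. The log2 ratios were 1.13 and 1.34 in replicates 1 and 3 and -0.14 in replicate 2. Ccl5 has a short transcript of 532 bases with 53.6% GC. When each library's trend on GC content and transcript length was removed, the shCtr libraries held 10.2, 10.2 and 12.7 CPM of Ccl5 and the shOSGEP libraries 24.7, 14 and 28.3 CPM, without overlap. The share of all genes without overlap was not counted after this removal, so this separation cannot be weighed against it. The Log2FC with these offsets was 1.02 (SE 0.324), with an unadjusted p of 0.0142 and an adjusted p of 0.805 in edgeR, in a fit where 3.58% of all genes passed the study threshold upward. Without shCtr replicate 2 the Log2FC was 1.28 (unadjusted p 0.0153 in edgeR), in a fit where 2.06% of all genes passed upward. Without both libraries of replicate 2 it was 1.26 (unadjusted p 0.0167 in edgeR), where 1.26% passed upward. With other libraries left out Ccl5 did not pass. Its Log2FC then ranged from 0.26 (without replicate 3, unadjusted p 0.785 in edgeR) to 0.79 (without shOSGEP replicate 1).

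Il15 and Cxcl1 did not separate. Il15 (ENSMUSG00000031712, chromosome 8, 82331632 to 82403222, minus strand) had shCtr levels of 1.4, 0.590 and 0.876 CPM (33, 12 and 19 counts) and shOSGEP levels of 1.44, 2.21 and 1.06 CPM (31, 57 and 25 counts). Each shOSGEP library was above its same-numbered shCtr library, but by log2 ratios of only 0.04, 1.91 and 0.28, and the groups overlapped. The Log2FC was 0.71 (SE 0.597), with an unadjusted p of 0.266 in edgeR, and was 0.13 without the libraries of replicate 2. Cxcl1 (ENSMUSG00000029380, chromosome 5, 90891241 to 90893115, plus strand) had 11, 0 and 4 counts in shCtr and 9, 24 and 5 counts in shOSGEP. It passed the filter with 1 shCtr and 2 shOSGEP libraries. Its Log2FC was 1.22 (SE 1.04), with an unadjusted p of 0.274 in edgeR, and turned to -0.06 without the libraries of replicate 2. The exact permutation test (two-sided) gave p = 0.3 for Ccl5, p = 0.2 for Il15 and p = 0.3 for Cxcl1.

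In all, 0 of the 5 tested genes reached an adjusted p under 0.05 in edgeR over the 12669 genes tested, and 0% of all genes did. In edgeR 256 genes (2.02%) had an unadjusted p under 0.05, Cxcl10 and Csf1 among them, while 14 genes (0.111%) passed the adjusted threshold in DESeq2, with 0 of the 5 among them. Cxcl10 and Csf1 passed the study threshold, both higher in shOSGEP, which is 2 of 5, against 1.59% of all genes tested that passed it upward and 0.426% downward. The same 2 genes had groups without overlap, higher in shOSGEP, against 3.49% of all genes. In each same-numbered comparison Cxcl10, Csf1 and Il15 were higher in shOSGEP, which is 3 of 5, against 17.6% of all genes. The median Log2FC of the 5 genes was 1.18, that of all genes -0.03. These 5 had passed a filter on low counts, so the median does not describe the 5 genes below it. The genes were also chosen with earlier results of these data known, so these shares describe the set and test nothing about it. Voom weighted by library quality, with the replicate number as a block (limma), called Cxcl10, Ccl5 and Csf1 at adjusted p of 0.0216, 1.22e-08 and 4.16e-05, where it called 6.73% of all genes as higher. It gave the replicate 2 libraries weights of 0.112 and 0.113, against 1.91 to 4.6 for the others. Its tests drew on a variance pooled over genes, with 902.5 prior against 2 residual degrees of freedom. These adjusted p therefore do not measure each gene's own spread over the infections.

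**Figure D4:**
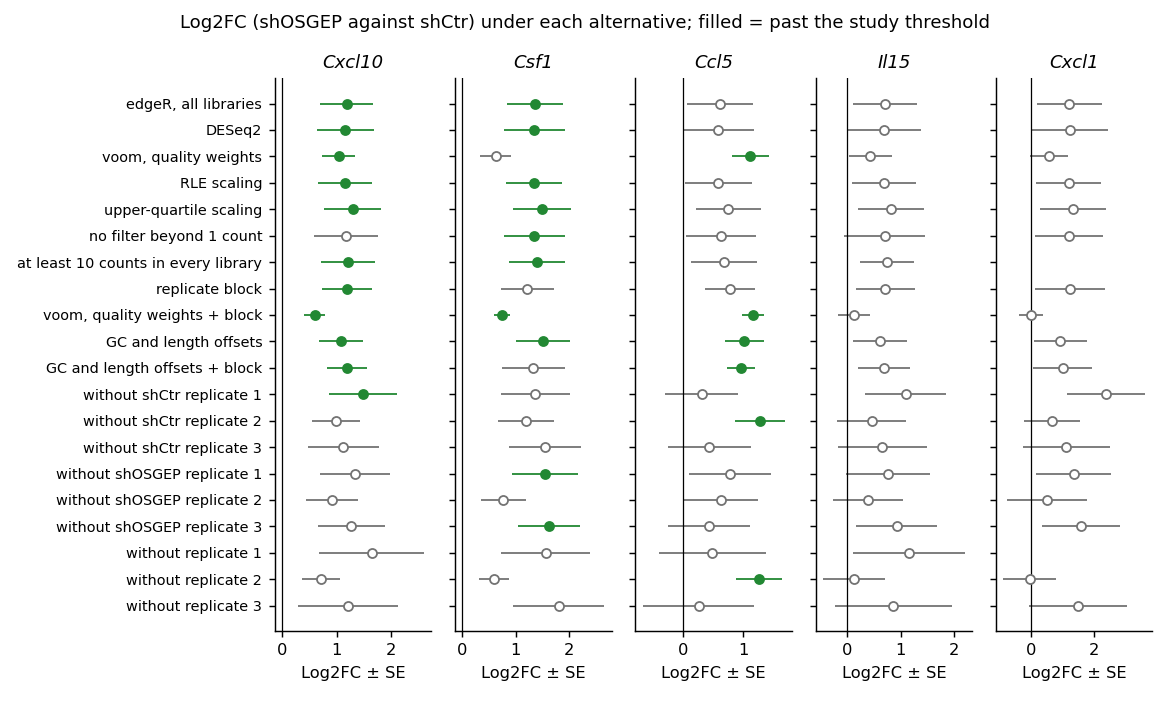
Log2FC (shOSGEP against shCtr) with its SE for the 5 tested genes in the edgeR fit with all libraries and in 19 alternatives; filled green points passed the study threshold. Cxcl10 and Csf1 stay above 0 in all fits and pass in 10 and 9 of the 19 alternatives, Ccl5 passes in 6, and Il15 and Cxcl1 (17 alternatives) in none, where 0.416% to 7.46% of all genes passed upward.

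The other genes of the secreted network were examined next, from lists of 33 further chemokines and 47 further cytokines. Most stayed at or under the floor: 24 of the 33 chemokines and 32 of the 47 cytokines never exceeded 3 counts in a library. Of all 55487 genes counted, 16402 exceeded 3 counts in some library, so low counts were not particular to these lists. Of 4 tested chemokines, 1 passed the study threshold upward and 0 downward, against 1.59% and 0.426% of all genes tested. That gene was Ccl28, a chemokine of mucosal epithelia, at 0.297, 0.0983 and 0.138 CPM in shCtr and 0.605, 0.659 and 0.594 CPM in shOSGEP, without overlap. Its Log2FC was 1.75 (SE 0.644), at 2 to 17 counts per library, and it passed in 8 of the 18 alternatives in which it was tested. The call was lost in DESeq2 (unadjusted p 0.0627), without a filter on low counts (0.081) and without shOSGEP replicate 2 (0.0683). Ccl28 passed the filter solely through its shOSGEP libraries, the group in which it was high, so its call and its separation are given as a description. Ccl25, the chemokine of this list with the most counts, was at 7.24 to 16 CPM in shCtr and 5.98 to 16.7 CPM in shOSGEP.

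Of 12 tested cytokines, 3 passed the study threshold upward and 0 downward, against 1.59% and 0.426% of all genes tested. Tslp, an alarmin of epithelial cells, was at 0.552, 0.492 and 0.415 CPM in shCtr and 2.05, 3.72 and 0.552 CPM in shOSGEP. Its shCtr replicate 1 and its shOSGEP replicate 3 both had 13 counts, so the groups overlapped, and the Log2FC was 2.10 (SE 0.758). Lif, a cytokine of the interleukin 6 family, was at 0.807, 1.03 and 0.415 CPM in shCtr and 1.4, 7.32 and 1.31 CPM in shOSGEP, without overlap and with a Log2FC of 2.15 (SE 0.843). Flt3l, a growth factor of dendritic cells, had a Log2FC of 1.80 (SE 0.780) between means of 1.28 ± 0.729 and 4.47 ± 3.50 CPM (SD, n = 3). Without shOSGEP replicate 2 the Log2FC was 1.41 for Tslp, 0.87 for Lif and 0.97 for Flt3l, and none passed. Tslp (13, 10 and 9 counts) and Lif (19, 21 and 9 counts) did not meet the filter on low counts in shCtr alone. They passed it through shOSGEP, the group in which they were high, so their calls and the separation of Lif are given as a description. Clcf1, which signals through the receptor chain shared by this family, had a Log2FC of 2.18 (SE 0.974) and an unadjusted p of 0.0544 in edgeR, which was 0.0476 with the replicate block (Log2FC 1.55). Of its 260 shOSGEP counts 215 came from replicate 2, and without that library its Log2FC was 0.43 (unadjusted p 0.561 in edgeR). Tslp, Clcf1 and Flt3l overlap other annotated genes, and their counts are uncertain to that extent. Mif, by far the most abundant cytokine mRNA of the list in CPM, was at 213.2 to 1091 CPM in shCtr and 156.8 to 366.2 CPM in shOSGEP.

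**Figure D5:**
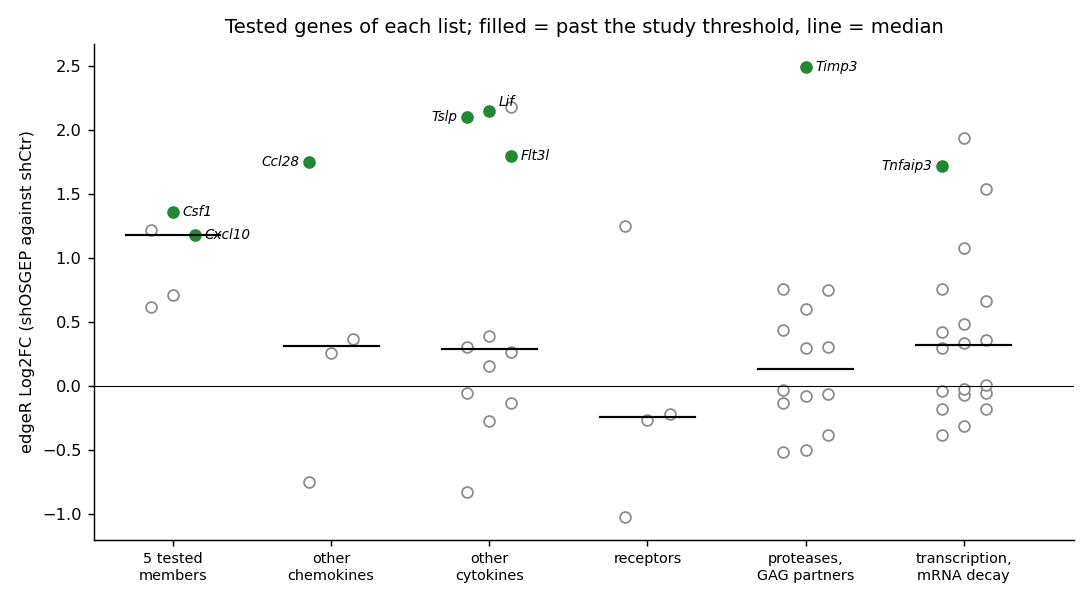
EdgeR Log2FC of every tested gene of the 5 tested members and of 5 further lists (points; filled green with a name where past the study threshold) with the median of each list as a line. The points past the threshold are Csf1, Cxcl10, Ccl28, Tslp, Lif, Flt3l, Timp3 and Tnfaip3, no tested receptor passes, and Timp3 at 2.50 is the highest point.

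Most receptors for these ligands had few or no counts. Of 18 receptor genes, 11 never exceeded 3 counts, among them Ccr2, Cxcr2 and Cxcr6, and Il7r had no count. Of all 55487 genes counted, 16402 exceeded 3 counts in some library, so such low counts were not particular to the receptors. Of 4 tested receptors, 0 passed in either direction, against 1.59% of all genes tested upward and 0.426% downward. Tnfrsf1a, the widely expressed receptor of Tnf, was at 168.6 ± 82.8 CPM in shCtr and 144.6 ± 30.0 CPM in shOSGEP (SD, n = 3). Cxcr3, the receptor of the Cxcl10 product, was at 3.25 ± 1.73 and 2.69 ± 1.60 CPM (SD, n = 3). Il15ra, which presents the Il15 product to neighbouring cells, had 2, 0 and 1 counts in shCtr and 1, 17 and 0 counts in shOSGEP.

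Proteases that shed ligands from the cell surface and the heparan sulfate partners that hold chemokines formed a list of 16 genes, of which 14 were tested. Of these 14, 1 passed upward and 0 downward, against 1.59% and 0.426% of all genes tested. That gene was Timp3, an inhibitor of metalloproteinases including ADAM17, the enzyme that releases membrane-bound TNF. Its level was 65.2, 31.9 and 51.4 CPM in shCtr and reached 254.9, 470.5 and 113.7 CPM in shOSGEP, without overlap, with a Log2FC of 2.50 (SE 0.60) and an unadjusted p of 0.00293 in edgeR. It passed the study threshold in all 19 alternatives, with a Log2FC of 1.66 when the replicate 2 libraries were left out. The span of Timp3 lies within that of Syn3 on the opposite strand. Whether their exons overlap, and any part of Syn3 in the Timp3 counts, was not tested. Adam17 itself was at 62.7 ± 47.0 and 95.2 ± 47.9 CPM (SD, n = 3), and Adam10, which sheds the product of Cxcl16, at 15.5 to 183.0 CPM in shCtr and 61.2 to 214.1 CPM in shOSGEP, with overlapping groups.

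Regulators of transcription and mRNA decay for these ligands formed a list of 20 genes, all tested. Of these 20, 1 passed upward and 0 downward, against 1.59% and 0.426% of all genes tested. Tnfaip3, an NF-kappaB target that encodes the inhibitor A20, was at 0.977, 0.885 and 1.01 CPM in shCtr and 1.63, 6.20 and 1.66 CPM in shOSGEP, without overlap, with a Log2FC of 1.72 (SE 0.695). Without shOSGEP replicate 2 its Log2FC was 0.79 and it did not pass, nor did it with the replicate block (unadjusted p 0.0607 in edgeR). Irf9, a subunit of an interferon-activated transcription factor complex, had a Log2FC of 1.54 (SE 0.816) and an unadjusted p of 0.0951 in edgeR, which was 0.00675 with the replicate block (Log2FC 1.39). Of its 2054 shOSGEP counts 1503 came from replicate 2, and without that library its Log2FC was 0.40 (unadjusted p 0.582 in edgeR).

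Ccl2 was not the sole gene counted mainly in shOSGEP replicate 2. Over the 144 genes of the members and of the 5 further lists, 9 exceeded 3 counts in shOSGEP replicate 2 and in no other library: Ccl2, Ccl7, Ccl20, Cxcl11, Il6, Il34, Tnfsf10, Il15ra and Csf1r. This group was noticed after the values were seen. The corresponding number was 1 in shOSGEP replicate 1 (Tnf), 1 in shOSGEP replicate 3 (Ccl6) and 0 in each shCtr library. Of the 144 listed genes, 11 exceeded 3 counts in a single library. Among all genes, 1424 exceeded 3 counts in a single library, of which 474, or 33.3%, did so in shOSGEP replicate 2, and 79 to 276 in each of the others. Among protein-coding genes alone, the number was 265 in shOSGEP replicate 2 and 42 to 105 in each of the others. Cxcl11, annotated as a polymorphic pseudogene, had 11 counts in this library and 1 in the other 5 together. Csf1r, the receptor of the Csf1 product, had 13 counts there and 0 elsewhere. The same library had the lowest Osgep level and the lowest summed level of melanoma markers, and their part in this pattern was not tested.

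The genes most like each of the 5 in log2 CPM over the 6 libraries, among those with a mean of at least 50 counts, were listed by Pearson correlation as a description. For Cxcl10 they were Mapkapk5 (0.982) and Ifit3b (0.980), the latter an interferon-induced gene. For Ccl5 they were Usp11 (0.969) and Pltp (0.960), for Il15 Cyp2j9 (0.997) and B230118H07Rik (0.997), for Cxcl1 Mff (0.998) and 0610009B22Rik (0.998), and for Csf1 Ndrg4 (0.997) and Lgmn (0.997). Among the 5 genes themselves, Cxcl10, Csf1, Il15 and Cxcl1 correlated with each other at 0.798 to 0.981, and Ccl5 with them at -0.261 to 0.296. All these values rest on 6 libraries, among which those of replicate 2 stood apart.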

How the data were processed

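PolyA RNA of 3 shCtr and 3 shOSGEP libraries was sequenced. The authors trimmed reads with TrimGalore, aligned them to GRCm38 with STAR 2.6.1d and quantified genes with Salmon 1.4.0; per the labels edgeR and DESeq2 were their test tools. The values deposited by the authors are estimated counts per gene, as whole numbers, without normalization; the annotation release was not stated. The authors used a TruSeq RNA V2 kit, which was not stated to keep strand. Positions, transcript lengths and GC contents came from GENCODE M21 (GRCm38), which held 99.4% of identifiers.

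The labels gave each library's group and replicate number. Genes were kept by filterByExpr (minimum count 10, minimum total 15), scaled by TMM and tested by edgeR 4.0.16 (quasi-likelihood F-test, R 4.3.3, no block, two-sided, Benjamini-Hochberg over 12669 genes). The SE is the Log2FC divided by the square root of F. Replicates are separate infections. Alternatives were DESeq2 1.42.0, limma 3.58.1 voom with sample quality weights (with and without block), RLE and upper-quartile scaling, other filters, a replicate block, GC and length offsets (natural splines with 5 degrees of freedom on deviations of log2 CPM with a prior count of 2) and leaving out libraries. Test code was run on simulated data first. Same-numbered libraries deviated together from their group means (correlations 0.811, 0.557 and 0.196, all over 0.1). The shared label numbers were taken as pairs for the replicate block and the same-numbered ratios. Different numbers reached up to 0.491, above the 0.196 of replicate 3, so these correlations do not establish the pairs. The main fit and the permutation test used no pairs. Intervals and floors cover counting error only.

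Named genes were the 10 members, Osgep, in each further list up to 4 genes with the smallest unadjusted p (given with a Log2FC where p was under 0.1) and the one with the most counts, and 2 most alike genes per tested member. The members and lists were chosen with earlier results of these data known. Of the receptors, Il15ra, and in other lists Adam10, Adam17 and the genes seen in a single library were named after their values were seen. Some items of the lists are not reported here.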

Additional observations from a re-analysis of the deposited data

How the results depend on the processing

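Under the replicate block 1 of the 5 tested genes passed the study threshold instead of 2, since Csf1 was lost; limma-voom with sample quality weights and the block called 3 at an adjusted p under 0.05 instead of 0, and gave a Log2FC of -0.0073 for Cxcl1. The block also ended the call of Tnfaip3 and made calls of Clcf1 and Irf9, and changed no other call of the 5 genes, Osgep, Ccl28, Tslp, Lif, Flt3l or Timp3. The cause of these changes was not tested. Libraries were also left out, singly or as both of a replicate number, so fewer libraries entered these fits. Then 0 to 1 genes passed the study threshold (0 without shCtr replicate 3, shOSGEP replicate 2, replicate 1 or replicate 3). Of all genes, 0.416% to 2.09% passed it upward in these fits. Groups without overlap were found for 2 to 4 genes. Their share over all genes was not counted with fewer libraries, so these numbers cannot be set against the 3.49% with all libraries. Under these omissions 0 genes reached an adjusted p under 0.05. The median Log2FC ranged from 0.60 to 1.37, and the Log2FC of Cxcl1 from -0.0598 to 2.41. Scaling by RLE or upper quartile changed no call and no direction of the 5 genes. Cxcl1 could not be tested with at least 10 counts in every library or without replicate 1. Without a filter on low counts Ccl2 passed the study threshold (unadjusted p 0.00571 in edgeR), on 53 counts of 1 library, and Cxcl10 did not (0.056). In that fit 1.97% of all genes passed upward. GC and length offsets with the block passed Cxcl10 and Ccl5 but not Csf1 (unadjusted p 0.0765 in edgeR), in a fit where 3.89% of all genes passed upward. Depth limits Tnf, Ccl2 and Cxcl1, whose counts per library were mostly under 12.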
